A study of Mus musculus with 81 samples.

Results

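The domains of macroH2A1 (mH2A1) in hippocampal area CA1 were described in 4 ChIP-seq libraries of the experiment collected 1 h after contextual fear conditioning, 2 from trained and 2 from untrained mice. The libraries were chosen by the name of the histone and the time in their titles, and every domain in their 4 lists was taken, 353497 of the 2262155 domains in the 30 domain lists of the series. All mice were intact male C57BL/6J animals of about 9 to 12 weeks with no virus and no transgene. Trained mice received foot shocks in a conditioning chamber and were killed 1 h later, and untrained mice stayed in the home cage, so exposure to the chamber, handling and shock cannot be told apart. Each library came from the whole CA1 of 1 mouse, crosslinked and cut with micrococcal nuclease, and was set against the input chromatin of that mouse. CA1 is a bulk tissue of pyramidal neurons, inhibitory neurons, glia and vessels, and a domain held by fewer cells and one held at a lower level in each cell cannot be told apart. The titles of the 2 untrained libraries name mH2A1, whereas their description and antibody labels name macroH2A2 (mH2A2), and the overlap of their lists with mH2A1 and mH2A2 lists is given with the places covered. The protocol text shared by the ChIP labels gives 30 min and the Abcam antibody for every sample, so the time of 1 h was taken from the titles, and the use of a Thermo Fisher antibody at 1 h and 6 h from the study's methods. Values of single libraries are given in the order trained replicate 1, trained replicate 2, untrained replicate 1, untrained replicate 2.

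mH2A1 is a variant of histone H2A, encoded by H2afy, that carries a large globular macro domain outside the nucleosome. It is known from broad stretches of silent chromatin, from the inactive X chromosome of female cells and from genes regulated by Polycomb, and it is also found at a subset of active genes. The lists described here hold broad domains, which are runs of 200-bp bins with more reads than the input. Narrow peaks, which the study also called, were not analysed here.

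The sequences under the domains are shown first by the middle 200-bp bin of the longest stretch that lay in all 4 lists, of the longest stretches that lay in both lists of one group and neither of the other, and of the domains with the largest difference in enrichment between groups. They are given 5′ to 3′ on the plus strand of GRCm38 (mm10), with CpG dinucleotides in capitals, since the number of CpG sites differed with how many lists covered a bin.
All 4 lists, chr6:100110001-100110200: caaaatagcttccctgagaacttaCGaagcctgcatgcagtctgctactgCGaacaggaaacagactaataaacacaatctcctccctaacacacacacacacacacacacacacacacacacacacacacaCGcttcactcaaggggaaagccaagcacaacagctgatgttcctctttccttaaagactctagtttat
Both trained lists and neither untrained list, chr14:17428601-17428800: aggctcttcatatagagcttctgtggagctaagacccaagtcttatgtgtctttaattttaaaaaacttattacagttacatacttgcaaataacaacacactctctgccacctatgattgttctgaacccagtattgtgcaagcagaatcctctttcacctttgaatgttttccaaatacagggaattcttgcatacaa
Both untrained lists and neither trained list, chr13:12929601-12929800: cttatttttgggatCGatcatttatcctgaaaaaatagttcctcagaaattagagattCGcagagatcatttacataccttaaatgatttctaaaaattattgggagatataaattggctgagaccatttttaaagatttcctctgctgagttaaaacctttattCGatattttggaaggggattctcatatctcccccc
Enrichment higher in trained mice, chr9:31734001-31734200: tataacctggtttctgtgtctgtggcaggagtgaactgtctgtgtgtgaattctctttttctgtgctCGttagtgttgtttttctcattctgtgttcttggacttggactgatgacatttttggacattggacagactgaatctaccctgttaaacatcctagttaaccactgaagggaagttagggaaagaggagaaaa
Enrichment higher in untrained mice, chr3:50741801-50742000: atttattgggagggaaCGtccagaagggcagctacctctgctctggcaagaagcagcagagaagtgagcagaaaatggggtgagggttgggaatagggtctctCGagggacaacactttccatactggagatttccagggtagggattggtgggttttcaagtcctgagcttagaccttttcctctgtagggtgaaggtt
These 5 bins held 3, 0, 3, 1 and 2 CpG sites and had a GC content of 45.5, 36.5, 33, 41 and 50.5%. The bin taken from the stretch of both untrained lists had 133 of its 200 bases masked as repeats, against 27 to 59 bases in the other bins.

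The start of Egr2, an immediate early transcription factor gene, is shown because the edge of a domain fell inside it. The 300 bases around this start (RefSeq, GRCm38.p6, plus strand, 250 bases before and 50 after the start) lay wholly in a domain of trained replicate 2, 50.7% in a domain of trained replicate 1, which the capitals mark, and in no domain of the untrained mice.
Egr2, chr10:67535249-67535548: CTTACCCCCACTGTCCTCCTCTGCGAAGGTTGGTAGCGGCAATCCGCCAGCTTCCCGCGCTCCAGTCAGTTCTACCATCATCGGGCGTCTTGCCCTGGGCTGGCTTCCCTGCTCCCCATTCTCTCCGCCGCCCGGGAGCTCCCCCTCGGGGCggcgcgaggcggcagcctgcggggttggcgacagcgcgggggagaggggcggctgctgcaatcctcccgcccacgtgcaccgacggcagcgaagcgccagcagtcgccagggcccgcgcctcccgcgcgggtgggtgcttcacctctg
The window had 32 CpG sites and a GC content of 72%. At the same kind of window of 4 other immediate early genes, Fos, Nr4a1, Gadd45g and Klf4, none of the 4 lists had a domain. The RefSeq window of Nr4a1 lies inside the gene as GENCODE annotates it, and at the start used for coverage, the most upstream one, a domain of trained replicate 1 ran across. At the RefSeq window of Egr4 trained replicate 1 reached into 13% and the other 3 lists had no domain.

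mH2A1 domains covered more than 21% of the genome in every mouse, and the covered length of trained and untrained mice overlapped. The lists held 90889, 86303, 80836 and 95469 domains, and these covered 569, 619.6, 646 and 566 Mb, or 21.5, 23.4, 24.4 and 21.4% of the known sequence. The mean was 594 ± 35.6 Mb (SD, n = 2) in trained and 606 ± 56.8 Mb (SD, n = 2) in untrained mice, and the exact permutation test of this difference was two-sided with p = 1. The mH2A1 lists of 6 h covered 598 to 636 Mb, and those of 30 min, made with another antibody, covered 325 to 416 Mb.

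Domains were mostly a few kilobases long, with a tail of very long ones that held much of the covered sequence. The median length was 3800, 4000, 4600 and 4200 bp, so both trained lists lay below both untrained lists. The means of the medians were 3900 ± 141 bp in trained and 4400 ± 283 bp in untrained mice (SD, n = 2 each), with p = 0.333 by the exact permutation test, two-sided, which is the smallest p that 2 against 2 samples allow. The tail did not follow training. Domains of at least 10 kb held 47.2, 53.3, 55.7 and 37.2% of the covered sequence, the lists had 682, 939, 1009 and 213 domains of at least 50 kb and 101, 164, 196 and 15 of at least 100 kb, and the longest domain was 347400, 346200, 377800 and 172400 bp. Untrained replicate 2 thus had the fewest long domains and untrained replicate 1 the most. In each list the enrichment over input was higher for the shortest and the longest domains than for those of 2 to 10 kb, as the plot of domain length shows.

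**Figure D1:**
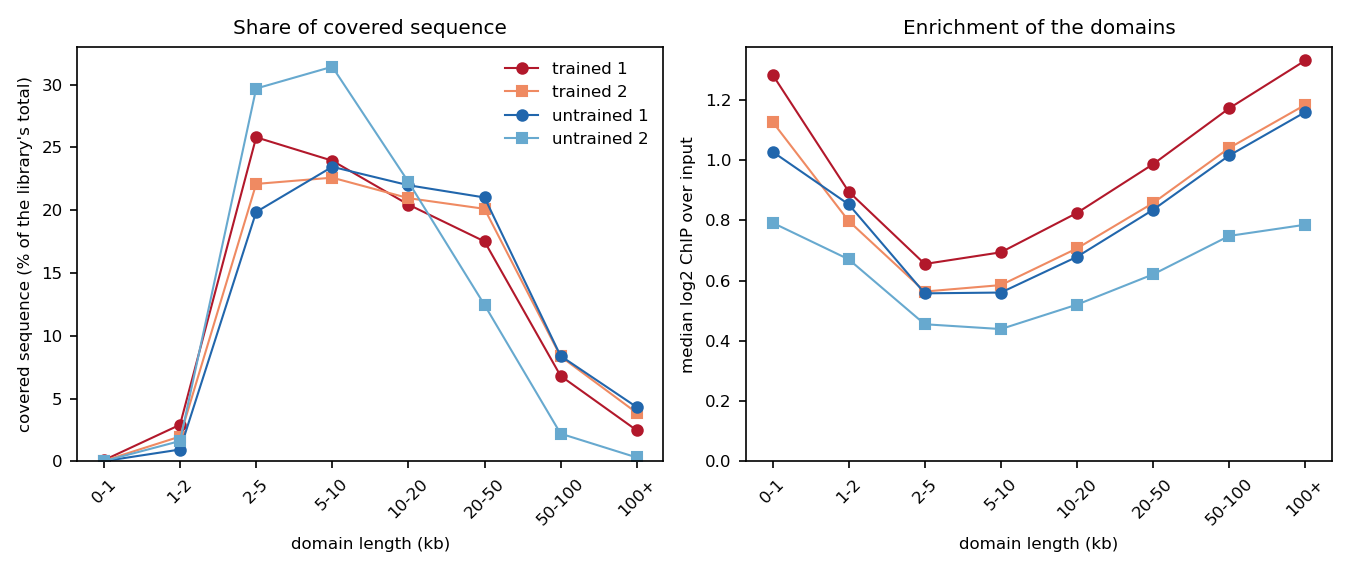
Covered sequence (left, percent of each library's covered total) and median log2 of ChIP over input (right) against domain length in kb, with 1 line for each of the 4 libraries, circles for replicate 1 and squares for replicate 2. Untrained replicate 2 had 31.4% of its covered sequence in domains of 5 to 10 kb against 22.6 to 23.9% in the other libraries, and its median log2 in domains of at least 100 kb was 0.79 against 1.16 to 1.33.

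Untrained replicate 2 stood apart from the other 3 libraries, and the main counts are given with and without it. Its domains held a median log2 of ChIP over input of 0.47, against 0.73, 0.63 and 0.61 in trained replicates 1 and 2 and untrained replicate 1, and 2.26% of them reached a log2 of 1, against 19.7, 11.0 and 9.06%. Its number of domains with a p-value of 0, the limit of the caller's precision, was 108, against 876, 1163 and 1193. The median log2 was higher in both trained mice than in both untrained mice (0.68 ± 0.07 against 0.54 ± 0.10, SD, n = 2 each, p = 0.333 by the exact permutation test, two-sided), but trained replicate 2 and untrained replicate 1 differed by less than the 2 trained mice did. The domains held 30.9, 41.4, 44.1 and 43.3 M ChIP reads and 18.4, 22.2, 32.8 and 24.0 M input reads, which is 54.3, 66.9, 68.2 and 76.6 ChIP reads per kb. The ChIP reads per kb of domain were lower in both trained mice, and their part in the difference of log2 or of median length was not tested. Of 15 such quantities per library the groups did not overlap in 7, each with p = 0.333 by the exact permutation test, and 0.714 after Benjamini-Hochberg adjustment over the 15.

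The places covered did not set trained mice apart from untrained mice. The Jaccard index, the sequence shared by 2 lists over the sequence in either, was 0.642 between the trained mice and 0.636 and 0.659 between untrained replicate 1 and each trained mouse. Untrained replicate 1 was thus as close to the trained mice as these were to each other, and farther from untrained replicate 2, with which its index was 0.555. Untrained replicate 2 had indices of 0.529 and 0.545 with the trained mice. Between 17.3 and 28.8% of the domains of one list met no domain of another, and these were short, with a median of 2400 to 3400 bp.

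The untrained lists shared more with the mH2A1 lists of 6 h than with the mH2A2 lists of 1 h, which bears on the antibody label of these mice. Untrained replicate 1 had indices of 0.630 to 0.668 with the 10 mH2A1 lists of 6 h, and untrained replicate 2 of 0.548 to 0.565. With the 6 mH2A2 lists of 1 h the indices were 0.224 to 0.32 for untrained replicate 1 and 0.244 to 0.362 for untrained replicate 2. The mH2A2 lists of 1 h themselves had indices of only 0.251 to 0.457 with each other, a range that includes 0.362. With the mH2A1 lists of 6 h they had indices of 0.238 to 0.356. The trained mice, whose labels name mH2A1 throughout, had indices of 0.617 to 0.67 with the 6 h lists and of 0.228 to 0.314 with the mH2A2 lists. All 4 libraries shared less with the mH2A1 lists of 30 min, 0.304 to 0.399, than with those of 6 h. The ranges for 30 min and for mH2A2 overlapped, and untrained replicate 2 shared more with 1 mH2A2 list of 1 h (0.362) than with 4 of the 5 mH2A1 lists of 30 min (0.320 to 0.350).

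**Figure D2:**
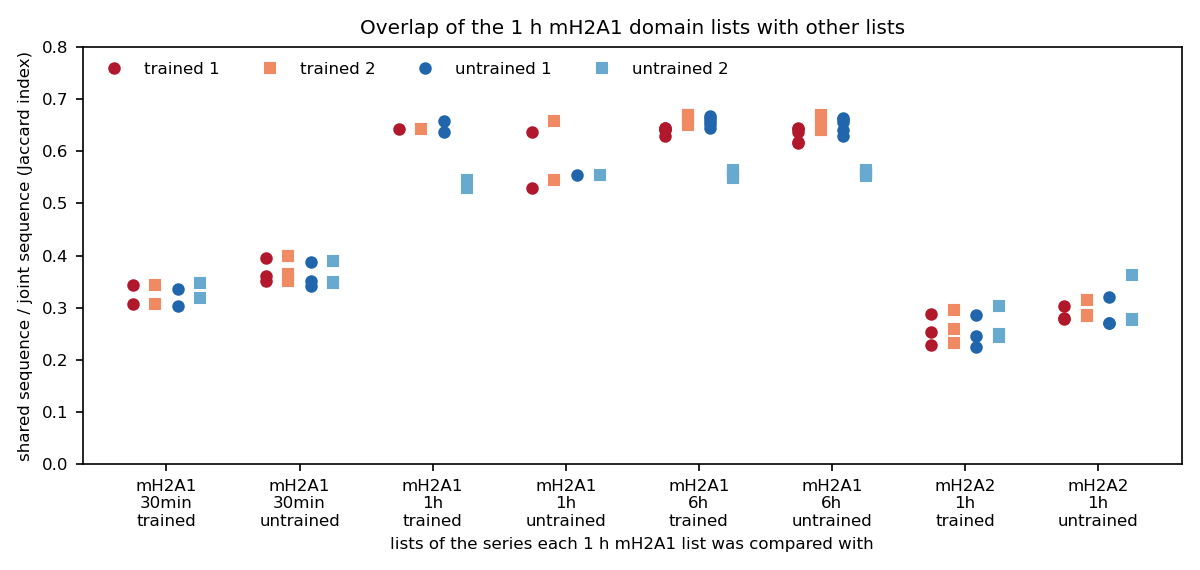
Jaccard index (shared over joint sequence) of each 1 h mH2A1 list with the lists of 8 groups of the series, 1 point for each pair of lists, coloured by the 1 h library. Points of the 6 h mH2A1 groups lie between 0.548 and 0.67, and those of the 1 h mH2A2 groups between 0.224 and 0.362, also for both untrained mice.

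Sequence composition followed how many mice shared a place. Bins in all 4 lists made up 329 Mb, or 37.0% of the sequence in any list, those in 3, 2 and 1 lists 185, 155 and 219 Mb, and 1837 Mb lay in none. GC content was 40.2% outside domains and 42.1, 43.1, 44.6 and 46.7% in bins of 1, 2, 3 and 4 lists. CpG sites went from 7.71 per kb outside domains to 10.5 per kb in bins of 4 lists, and the share masked as repeats from 39.8 to 25.1%. Within each list, domains cut by log2 into 4 classes of equal size had a median GC content of 45.8 to 46.2% in the highest class and 42.3 to 43.0% in the lowest. The part of base composition in the enrichment was not tested.

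By chromosome, coverage was highest on chromosome 11, with 33.1, 35.8, 36.5 and 30.6%, and lowest among the autosomes on chromosome 3, with 17.7, 19.7, 21.1 and 18.3%. The sex chromosomes held almost no domains. On the X, 125, 124, 107 and 39 domains covered 0.273, 0.285, 0.251 and 0.0814%. On the Y, 8, 7, 7 and 7 domains covered 0.0345, 0.0306, 0.0302 and 0.0207%. In the other mH2A1 lists the X was covered to 0.197 to 0.234% at 30 min and to 0.266 to 0.412% at 6 h, in the mH2A2 lists of 1 h to 0.0899 to 0.126%, and in those of 30 min to 0.212 to 0.328%. Untrained replicate 2 lay below all of these and nearest to the mH2A2 lists of 1 h, but low coverage of the X did not mark the mH2A2 lists of 30 min. All mice were male. Groups did not overlap on the X and the Y, where trained mice were higher, and overlapped on each of the 19 autosomes. On the Y this rested on 0.0306% in trained replicate 2 against 0.0302% in untrained replicate 1, with 7 domains in each. Hprt, an X-linked gene of purine salvage, was in no domain of any mouse.

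By annotation, domains favoured the space between genes. They covered 25.6, 27.7, 29.4 and 25.6% of intergenic sequence, 16.6, 18.2, 18.6 and 16.5% of introns and 17.4, 19.3, 18.7 and 16.9% of exons. The 2 kb before the starts of protein-coding genes were covered to 24.5, 27.7, 24.8 and 18.8%, so untrained replicate 2 was low at promoters while its intergenic coverage equalled that of trained replicate 1.

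Of the 5 longest stretches shared by the 4 mice, 4 held no protein-coding gene, with predicted (Gm), Rik and clone-based genes not looked up. The longest was 172.4 kb at chr6:100023801-100196200, 32.4 kb from Rybp, which encodes a subunit of Polycomb repressive complex 1. It sat in single domains of 347.4, 333.4, 332.6 and 172.4 kb with a log2 of 1.49, 1.42, 1.43 and 0.87. The next were 116.4 kb at chr2:166298201-166414600 (142.5 kb from Sulf2, a heparan sulfate sulfatase), 112.8 kb at chr15:88049001-88161800 (289.6 kb from Fam19a5), 110 kb at chr8:120845201-120955200 (88.5 kb from Irf8, a transcription factor of myeloid cells) and 93.8 kb at chr4:140766001-140859800, over Padi4, Padi3 and Padi1 of the peptidylarginine deiminases. Of the 87210 stretches in all 4 lists, whose median length was 2400 bp, 115 reached 50 kb and 4 reached 100 kb. At the Rybp stretch the log2 of untrained replicate 2 was the lowest, and the other untrained mouse lay between the trained mice.

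The question of the comparison was whether training moves mH2A1 along the genome, and it was first asked with windows of 100 kb. No window passed the test. Of 27268 windows, 15719 had a mean coverage of at least 5% and were fitted with limma, and 0 (0%) passed an adjusted p of 0.05, with 802 at an unadjusted p under 0.05 and a smallest adjusted p of 0.88. Without untrained replicate 2 the count was also 0. Windows of 1 Mb gave 40 calls (2 higher and 38 lower in trained mice) of 1958. The fit with a replicate block, although the numbers are not known to pair the mice, gave 90 (2 higher, 88 lower). The median difference between trained and untrained mice was -0.1 percentage points, with 5% of windows below -13.4 and 5% above 12.1. The groups did not overlap with trained mice higher in 2144 windows (13.6%) and with trained mice lower in 3190 (20.3%).

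In each of the 5 windows with the largest excess in trained mice, untrained replicate 2 was the lowest library and untrained replicate 1 lay between it and the trained mice. The window chr2:30600001-30700000, which holds Cstad, was covered to 75.6, 82.8, 55.4 and 18.6%, a difference of 42.2 ± 12.4 percentage points (SE, n = 2 each, adjusted p = 0.88, limma). The untrained mice differed more from each other than untrained replicate 1 did from the trained mice. The 6 h lists covered this window to 69.2 to 85.8%, and the 30 min lists to 0 to 42.4%, in trained and untrained mice. At chr12:86800001-86900000 with Irf2bpl the coverage was 67, 76.2, 56.2 and 13.4%, and at chr10:59900001-60000000 it was 58.0, 63.0, 44.6 and 7.2%. The latter holds Ddit4, a stress-induced inhibitor of mTOR signalling, and Anapc16, a subunit of the anaphase-promoting complex. At chr8:25200001-25300000 with Tacc1 it was 77.4, 78.6, 59.0 and 27.8%, and at chr18:39500001-39600000 it was 59.4, 73.6, 50.2 and 14.2%. The last window lies at Nr3c1, which encodes the glucocorticoid receptor.

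In each of the 5 windows with the largest deficit in trained mice, untrained replicate 2 was the highest library. At chr5:145600001-145700000 with Cyp3a41a, a cytochrome P450 of the liver, coverage was 4.2, 5.4, 8.6 and 86.8%, a difference of -42.9 ± 20.9 percentage points (SE, n = 2 each, adjusted p = 0.88, limma). At chr4:144400001-144500000 with Pramef12 and Aadacl3 it was 1.8, 5.2, 21.8 and 70.2%. At chr7:27000001-27100000 with Cyp2a12, also of the liver, it was 10.0, 6.8, 18.4 and 75.6%, and at chr7:47300001-47400000 with Mrgpra1, a receptor of sensory neurons, it was 3.0, 0, 13.6 and 65.0%. In all 4 windows untrained replicate 1 was closer to the trained mice than to untrained replicate 2. The 30 min lists, from trained and untrained mice alike, covered the window of Cyp3a41a to 86.4 to 91.6%, and the 6 h lists to 6.6 to 76.4% in trained and 8.4 to 88.8% in untrained mice. The window chr11:3100001-3200000 at Sfi1 and Drg1 was the one in which the untrained mice were closest, with 0.2, 3.8, 31.2 and 54.8% and a difference of -41.0 ± 7.86 points (SE, n = 2 each, adjusted p = 0.88, limma). Bases masked as repeats made up 38.9 to 51.9% of the 5 deficit windows, against 20.9 to 35.8% of the 5 excess windows and 36.4% of the genome. The part of repeats in these differences was not tested. The 30 min lists covered the 5 deficit windows to 39.8 to 91.6%.

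**Figure D3:**
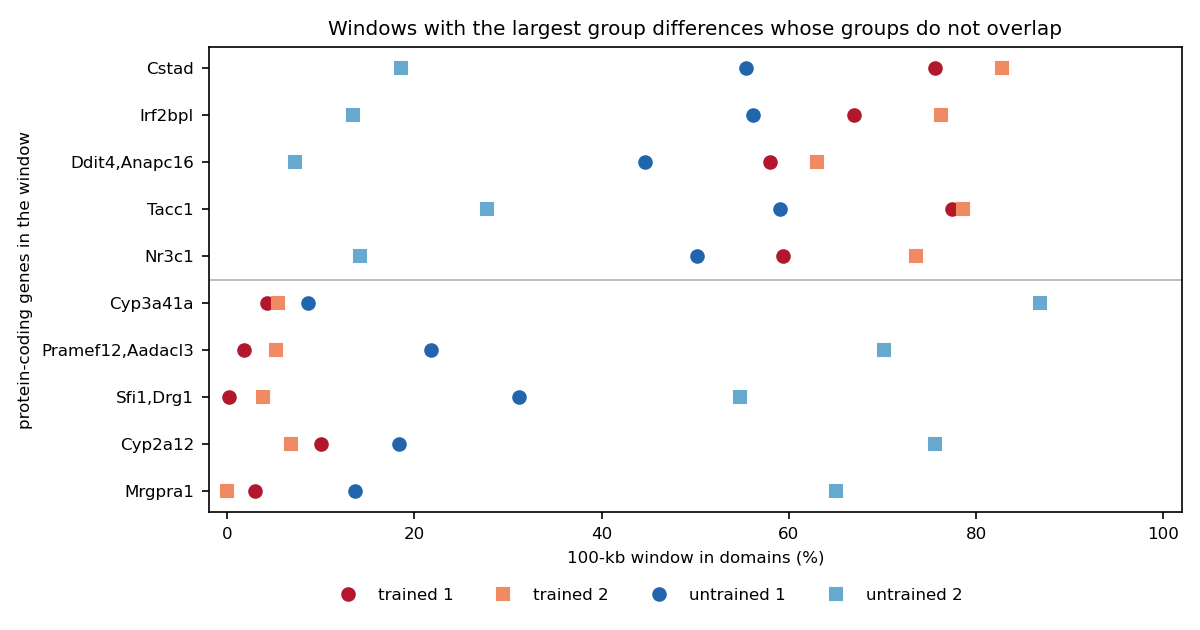
Percent of a 100-kb window in domains (horizontal axis) for the 5 windows with the largest trained excess (above the line) and the 5 with the largest trained deficit (below), named by their protein-coding genes, 1 point for each of the 4 libraries. Untrained replicate 2 is the lowest point in the upper 5 windows (7.2 to 27.8%) and the highest in the lower 5 (54.8 to 86.8%).

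Places covered in both mice of one group and in neither of the other were few and short. Bins in both trained lists and neither untrained list made up 25.5 Mb, or 2.87% of the sequence in any list, in 24915 stretches with a median of 800 bp. The reverse made up 29.3 Mb, or 3.30%, in 25446 stretches, also with a median of 800 bp. Without untrained replicate 2 they came to 47.4 and 88.3 Mb, and without untrained replicate 1 to 114 and 106 Mb. Promoters took 3.44% of the first class and 1.10% of the second, against 1.62% of the genome, and the GC content was 44.6 and 42.6%. The longest stretches of the first class were 7.8 kb at chr14:17424801-17432600, 228 kb from Thrb of the thyroid hormone receptor, 7.6 kb at chr11:29657201-29664800, 28.1 kb from Rtn4, and 7.4 kb at chr11:120233801-120241200 in Bahcc1, which had 58.8 CpG sites per kb. Those of the second class were longer, with 26 kb at chr13:12916601-12942600 near Prl2c2 of the prolactin family, 16.2 kb at chr11:3184001-3200200 in Sfi1 and Drg1, and 10.4 kb at chr4:147395401-147405800 near Zfp978, a zinc finger gene.

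Enrichment within shared domains was compared next, since a domain can be present in all mice and differ in level. Joining bins that lay in at least 2 lists gave 84646 consensus domains over 669.5 Mb. For each list, the log2 of a consensus domain was the mean deposited log2 of the called domains overlapping it, weighted by overlap. Such called domains can be longer or shorter than the consensus domain, and the part of their length in the differences was not tested. The 27791 consensus domains of which every list covered at least 50% were fitted with limma on this log2 of ChIP over input. None passed (0%, with 30 under a replicate block, all higher, 9 where any part in each list was enough, also higher, 1583 at an unadjusted p under 0.05 and a smallest adjusted p of 0.0691), and none passed with edgeR on the ChIP counts (2028 at an unadjusted p under 0.05). The study compared reads over consensus regions with DiffBind and did report differentially bound mH2A1 domains at 1 h, most of them with less signal after training. Its comparison of reads was not repeated here. The median log2 over the 27791 domains was 0.76, 0.68, 0.69 and 0.49. Trained mice were higher by a median of 0.14, and higher in 82.5% of the domains. The groups did not overlap with trained mice higher in 9421 domains (33.9%) and with trained mice lower in 1016 (3.66%). Once each library was centred on its own median, these became 4971 (17.9%) and 4673 (16.8%), where centring by itself sets the median difference near 0. The median of untrained replicate 1 lay between those of the trained mice, and that of untrained replicate 2 was the lowest.

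The consensus domains with the largest differences were short and mostly lay outside the protein-coding genes looked up. At chr9:31733001-31735000, 111 kb from Barx2, the log2 was 2.05, 1.27, 0.48 and 0.57, a difference of 1.14 ± 0.28 (SE, n = 2 each, adjusted p = 0.172, limma). At chr17:42650001-42650600, a domain of 600 bp near Adgrf4, it was 1.33, 1.27, 0.28 and 0.34, a difference of 0.99 ± 0.22 with the smallest adjusted p of 0.0691 (limma). At this domain the mice of each group were close together, whereas at chr3:147709801-147712800, with the same adjusted p, trained replicate 1 at 2.03 stood far above trained replicate 2 at 0.72. In the other direction, the log2 at chr3:50740401-50743400, 297 kb from Slc7a11, was 0.59, 0.54, 1.34 and 1.11, a difference of -0.66 ± 0.23 (SE, n = 2 each, adjusted p = 0.603, limma). At chr10:126454801-126459400 it was 0.36, 0.22, 0.96 and 0.83, and at chr15:102305401-102309600 in Espl1, which encodes the separase of mitosis, it was 0.29, 0.52, 0.64 and 1.27. After centring, the adjusted p of the domains near Barx2 and Slc7a11 was 0.86.

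Immediate early genes are transcribed by neurons within minutes of activity. Of 31 such genes, 30 were tested for RNA in intact mice of the series. Of these, 10 passed an adjusted p of 0.01 (edgeR quasi-likelihood test), with RNA higher after training, against 15 of all 15641 genes (0.0959%). Coverage of a gene was taken from 2 kb before its start to its end. Over all 24051 genes with a mean of at least 5%, 0 (0%) passed an adjusted p of 0.05 with limma (1505 at an unadjusted p under 0.05, smallest adjusted p 0.278). Without untrained replicate 2 the count was 1582 (622 higher and 960 lower in trained mice) and without untrained replicate 1 it was 4471, in fits where the lone untrained mouse is assumed to vary like the trained ones. Of 31 immediate early genes, 9 were in no domain of any mouse, among them Jun, Junb, Fosl2, Egr3, Per1 and Homer1, 9 were partly covered in every mouse, and 13 in some mice. Among all protein-coding genes 9854 of 21911 were in no domain of any mouse. Groups cannot differ at such a gene, so the protein-coding shares given next are lowered more than those of the 31. A comparison among covered genes alone was not made. Groups did not overlap at 9 of the 31, all with trained mice higher, against 9.63% of protein-coding genes higher and 5.52% lower. Without untrained replicate 2 the counts were 9 higher and 1 lower, against 12.3 and 14.6% of protein-coding genes, and without trained replicate 1 or untrained replicate 1 they were 20 higher and 0 lower, against 20.9 and 23.3% higher.

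Arc, which encodes a synaptic protein of the postsynaptic density, had the largest of these differences. It was covered to 100, 57.8, 32.3 and 0%, a difference of 62.8 ± 23.7 percentage points (SE, n = 2 each, adjusted p = 0.73, limma). At its promoter the groups overlapped, with 100, 38.5, 88.5 and 0%. In trained replicate 1 a single domain of 34 kb with a log2 of 1.09 ran through the gene, in trained replicate 2 a domain of 2.4 kb with a log2 of 1.73 covered part of the body, and in untrained replicate 1 a domain of 3.6 kb stopped 0.23 kb before the start. In the 6 h lists Arc was covered to 6.74 to 85.4% in trained and 25.0 to 85.4% in untrained mice, so mice of 1 group spanned most of the range seen here.

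The zinc finger factors of the Egr family differed in where the domain ended. Egr2 was covered to 22.1, 38.2, 19.8 and 19.8%, and a domain of 8400 to 52200 bp lay upstream of it in each mouse. This domain ended 0.075 kb before the start in trained replicate 1 and 0.275 kb before it in both untrained mice, and ran 1.33 kb past the start in trained replicate 2. Egr4 was covered to 40.0, 28.4, 22.1 and 8.70%, in domains that stopped 0.212, 0.812, 1.01 and 1.61 kb before its start. Egr1 was covered in trained replicate 2, to 13.7%, and in no other mouse.

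Fos and Fosb, of the AP-1 complex, did not separate the groups. Fos was covered to 10.8, 33.1, 16.2 and 0% and Fosb to 2.68, 35.9, 11.2 and 0%, and in both genes trained replicate 1 lay below untrained replicate 1. Among the other genes whose groups did not overlap, Nr4a1, an orphan nuclear receptor, was covered to 10.4, 7.69, 6.80 and 0%, and Gadd45g, a stress-response gene, to 24.3, 36.7, 0 and 0%. At Gadd45g domains of 51200 and 39000 bp ended 1.08 kb before the start in the trained mice, and domains of 27000 and 7000 bp ended 2.08 and 2.48 kb before it in the untrained mice, just outside the 2 kb counted. Klf4 had 35.5, 58.1, 28.1 and 0% and Maff 77.3, 69.0, 56.6 and 33.2%, with untrained replicate 2 the lowest in each. The coverage of Bdnf, the neurotrophin gene, was 3.68, 3.13, 0 and 0%, and that of Nfil3 was 1.72, 4.24, 0 and 0.46%. Gadd45b, with 3.10, 17.6, 3.10 and 0%, overlapped between groups, as did Npas4 with 11.5, 57.8, 14.0 and 0%. In the map of domains, those around Fos, Gadd45g and Klf4 left the start free in all 4 mice.

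**Figure D4:**
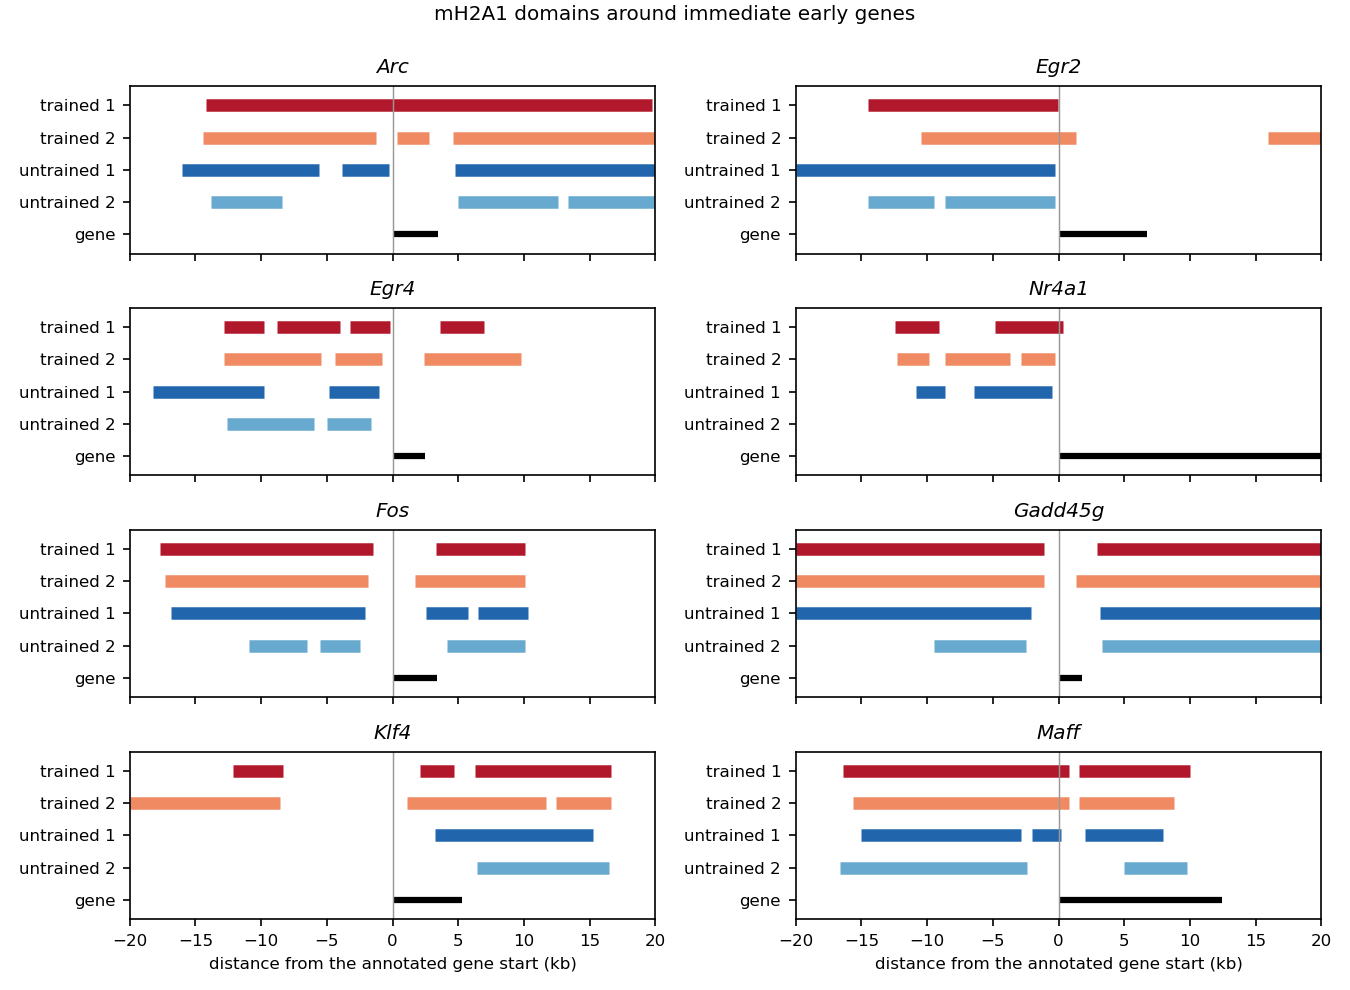
mH2A1 domains (coloured bars, 1 row for each library) within 20 kb of the annotated start of 8 immediate early genes, with the gene body as a black bar and distance in kb along the direction of transcription. The start of Arc lies in a domain of trained replicate 1 and of no other mouse, and the starts of Fos, Gadd45g and Klf4 lie in no domain.

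Genes grouped by cell type and function were covered very unequally. Protein-coding genes as a whole had a mean coverage of 19.7, 21.7, 20.7 and 18.0%, with 9854 of 21911 in no domain of any mouse and 3028 covered to at least 50% in every mouse. Keratins had 86.7, 91.2, 90.8 and 85.7%, with 41 of 49 covered to at least 50% in every mouse. Genes of skeletal and heart muscle had 81.5, 89.0, 77.7 and 68.4%, with Tnni2 and Tnnt3 of the troponin complex wholly covered in all 4 mice. The 39 Hox genes, which set position along the body axis and are silent in forebrain, had 92.8, 94.1, 90.5 and 51.6%, and developmental transcription factors 77.0, 76.0, 69.9 and 51.2%. Untrained replicate 2 was the lowest library at 37 of 39 Hox genes, against 19.9% of protein-coding genes. This share is lowered by the protein-coding genes in no domain, at which no library can be the lowest. Clustered protocadherins, which give neurons their surface identity, were at 0 in all 4 mice for 51 of 56 members, and olfactory receptors had 8.90, 10.2, 11.6 and 15.2%, highest in untrained replicate 2.

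Genes in steady use were almost free of domains. Housekeeping genes had a mean coverage of 1.78, 1.42, 2.08 and 0%, with Gapdh at 0 in all 4 mice, and ribosomal protein genes 3.40, 5.35, 3.94 and 2.37%, with 58 of 76 at 0 throughout. Within the ribosomal genes the most covered were Rpl39l and Rpl3l, paralogs known from testis and muscle, and within oxidative phosphorylation they were Cox6a2 and Cox8c, likewise isoforms of muscle and testis. H2afy was covered to 0, 1.48, 1.48 and 0.56% and H2afy2, which encodes mH2A2, to 0.309, 0, 0 and 0%. Genes of CA1 pyramidal neurons had 13.1, 16.3, 10.8 and 10.3%, with Gria2 of the AMPA receptor at 0 in every mouse and Fibcd1 at 91.4 to 97.7%. Genes of the less abundant cell types had more, 63.0, 70.9, 61.2 and 51.7% for inhibitory neurons, with Sst and Pvalb wholly covered, and 66.3, 71.8, 67.1 and 58.4% for microglia, with C1qa and C1qc wholly covered.

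Astrocyte and oligodendrocyte genes were covered more in trained mice on average, and none passed the test. Astrocyte genes had a mean coverage of 49.6, 48.6, 38.9 and 22.1%, and oligodendrocyte genes 62.8, 63.5, 52.0 and 37.9%. The groups did not overlap at 9 of 11 astrocyte genes and at 7 of 13 oligodendrocyte genes, all with trained mice higher, against 9.63% of protein-coding genes. This share is lowered by the 9854 of 21911 protein-coding genes in no domain of any mouse, at which groups cannot differ. Of the astrocyte genes 0 of 11 were in no domain, and of the oligodendrocyte genes 1 of 13. Without untrained replicate 2 the genes whose groups did not overlap were 10 higher and 1 lower for astrocytes and 7 higher and 2 lower for oligodendrocytes. The shares of all protein-coding genes, with those in no domain included, were then 12.3% higher and 14.6% lower. With all 4 libraries, microglia genes had 2 of 12 higher and 0 lower, developmental transcription factors 11 of 24 and 1, and Hox genes 11 of 39 and 0. Without untrained replicate 2 these were 3 higher and 1 lower, 11 and 3, and 11 and 1. The connexin gene Gjb6 was covered to 100, 100, 93.5 and 80.5% (difference 13.0 ± 5.39 percentage points, SE, n = 2 each), and the water channel gene Aqp4 to 16.2, 11.9, 0 and 0% (difference 14.1 ± 4.75), both with an adjusted p of 0.73 (limma). Untrained replicate 2 was the lowest at 7 of 11 astrocyte genes and at 7 of 13 oligodendrocyte genes. For endothelial genes, with 50.7, 58.0, 55.8 and 46.0%, 1 of 12 was higher and 2 were lower, and for GABA-A receptor subunits, with 8.79, 10.7, 10.8 and 11.2%, 1 of 18 was higher and 2 were lower. The share of each cell type in the tissue was not measured in these libraries.

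Promoters of weakly transcribed genes were covered most, and those of genes without any RNA counts less. A promoter was the 2 kb before the start, and it was counted when at least 50% of it lay in domains. RNA came from 5 other intact mice of the series (48.8 to 58.7 M counts). Among 5605 genes in the lowest of 3 equal classes of RNA level 46.4, 49.9, 46.8 and 36.6% of promoters were counted, among 5604 in the middle class 19.7, 22.7, 18.4 and 9.53%, and among 5605 in the highest class 14.3, 18.3, 13.4 and 6.28%. Each mouse thus had the same order of the 3 classes. Among 3268 genes with no RNA counts the share was 22.5, 24.4, 26.5 and 28.9%, the only class in which both untrained mice lay above both trained mice and untrained replicate 2 was the highest.

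Training raised the RNA of 15 of 15641 genes in the intact mice (0.0959%, adjusted p under 0.01 by the edgeR quasi-likelihood test), and no gene passed with lower RNA. They were Per2, Egr2, Ipmk, Per1, Fos, Arc, Nr4a1, Sik1, Egr1, Tiparp, Ak4, Errfi1, Egr4, Fosb and Junb. DESeq2, which the study used, called 464 genes on the same counts, 362 of them higher and the others lower. Leaving out 1 RNA library moved the edgeR count to between 1 (without trained replicate 1) and 416 (without untrained replicate 2, 255 higher and 161 lower). The promoters of the 15 genes were counted at 33.3% in both trained mice and in untrained replicate 1. In untrained replicate 2 the share was 6.67%, and among all 20082 matched genes it was 26.1, 29.3, 26.3 and 19.3%. With any bin in a domain enough, the shares were 60, 53.3, 46.7 and 26.7%, against 33.8, 37.2, 34.2 and 27.2%. With 2 kb on either side at the same cut they were 13.3, 13.3, 0 and 0%, against 21.7, 24.8, 21.5 and 17.2%. Mean coverage of the genes was 14.7, 20.0, 10.1 and 3.69%, against 20.0, 22.0, 21.0 and 18.2%. In these added measures both trained mice lay above both untrained mice at the 15 genes, which was not tested. Per1, Tiparp, Errfi1 and Junb were in no domain of any mouse, and Egr2 had RNA of 10.4 and 11.7 CPM (counts scaled to library size) in trained against 0.88 to 1.27 CPM in untrained mice with its promoter at 96.3, 100, 86.3 and 86.3%. RNA and ChIP came from different mice, so the 2 measurements cannot be matched animal by animal.

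**Figure D5:**
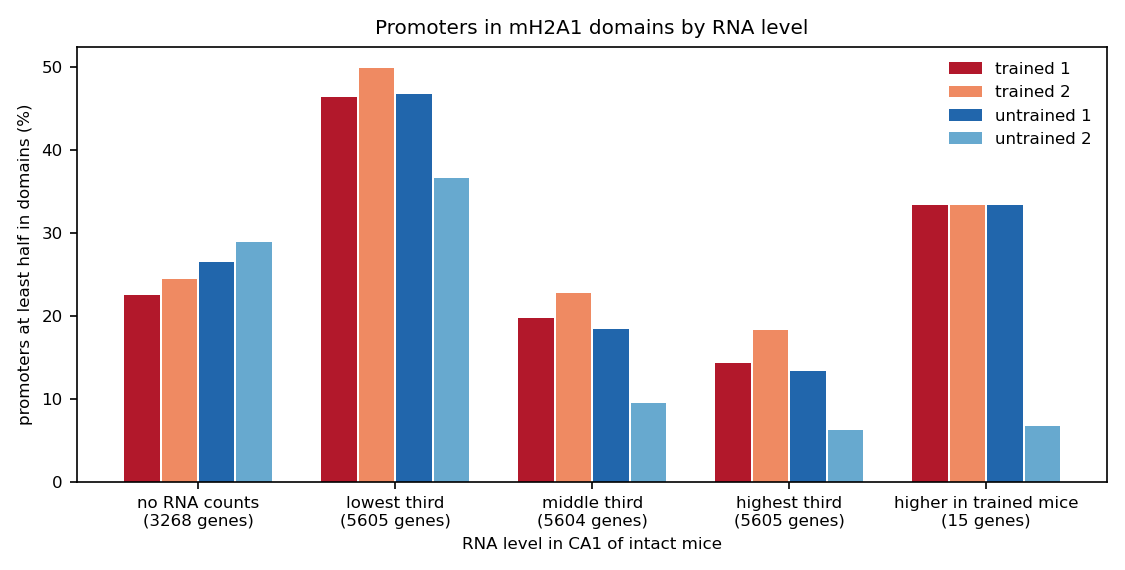
Percent of promoters with at least 50% in domains (vertical axis, from 0) for genes grouped by RNA level in CA1 of other intact mice, with 1 bar for each of the 4 libraries. The class of expressed genes with the lowest RNA is the highest group in every library (36.6 to 49.9%), and for genes with RNA higher after training 3 bars stand at 33.3% and that of untrained replicate 2 at 6.67%.

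Whether the effect of training at 1 h differed from that at the other times was tested as an interaction in the same windows. The difference from 30 min passed in 3 of 15552 windows (0.0193%) and that from 6 h in 0 of 15169 (0%, with 1568 at an unadjusted p under 0.05, limma). By the study's methods the antibody differed between 30 min and 1 h, so time and antibody cannot be told apart in the first. Without trained replicate 1, trained replicate 2 or untrained replicate 2 the first count was 0, and without untrained replicate 1 it was 904. The count against 6 h was 3 without untrained replicate 2 and 1682 without untrained replicate 1.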

How the data were processed

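Domain lists of 4 mH2A1 ChIP libraries were read as deposited. Before deposit, reads were trimmed and mapped to mm10 with Bowtie2, and broad domains were called per library against its own input, with epic2 by the study's methods and SICER by the submitters' processing notes. The counts deposited by the authors are ChIP and input reads inside each domain, unscaled. The deposited log2 value is ChIP over input as scaled by the caller. The deposited p-value and FDR are those of the caller, and every domain had an FDR under 0.05. Library totals are not in the lists, so read counts inside domains are no measure of depth. RNA counts per gene of 5 intact mice came from STAR and featureCounts, run by the authors. Tables of the knockdown experiments were not used here.

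Domains were laid on bins of 200 bp. Genes came from GENCODE M21 on mm10, and base composition and promoters from RefSeq GRCm38, where 6 of 7 genes looked up had a promoter entry and Arc had none. Windows of 100 kb and genes with a mean coverage of at least 5%, and consensus domains with at least 50% in every list, were fitted with limma 3.58.1 (trend), RNA with edgeR 4.0.16 and DESeq2 1.42.0, in R 4.3.3, with Benjamini-Hochberg adjustment over all features. Single values were compared by exact permutation tests (SciPy 1.17.1). Scripts were tested on simulated data. Groups followed the titles, and p-values measure the spread between single mice.

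Named were the 5 windows and 5 consensus domains of largest difference in each direction whose groups do not overlap, the 5 longest shared stretches, genes the study names, immediate early genes whose groups do not overlap, and up to 4 members of each list with the highest or lowest coverage. Stretches of 1 group, Jun, Junb, Fosl2, Egr3, Per1, Homer1 and Npas4 were named after their values were seen. In or near these windows, stretches and consensus domains, protein-coding genes with predicted (Gm), Rik or clone-based symbols were not looked up. Libraries and gene lists were chosen with earlier results of these data known. Alternatives were stricter domain lists, other windows, filters, overlaps and scalings, another tool, a replicate block and leaving out each replicate.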

Additional observations from a re-analysis of the deposited data

Results flagged for a closer look

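The effect of training on coverage differed between 1 h and 30 min in 3 windows of 100 kb by the interaction test of limma. At chr15:80300001-80400000, which holds the calcium channel gene Cacna1i, the effect at 1 h exceeded that at 30 min by 72.0 percentage points (adjusted p = 0.0386). Coverage there was 32.6, 35, 29 and 26.6% at 1 h, and at 30 min it was 11.8 and 9.2% in trained against 73.2, 75.6 and 80.6% in untrained mice. At chr15:84400001-84500000 with Shisal1 the excess was 53.7 points (adjusted p = 0.0463), from 83.6, 96.2, 75.4 and 71.6% at 1 h and 60.6 and 55.8% against 92, 94.6 and 100% at 30 min. At chr9:108800001-108900000 with Ip6k2, Nckipsd, Celsr3 and Slc26a6 it was 37.8 points (adjusted p = 0.0463), from 0, 4.4, 0 and 0% at 1 h and 0 and 0% against 36.6, 35 and 35.2% at 30 min. In all 3 windows the larger part of the difference lay at 30 min, where by the study's methods another antibody was used. Time and antibody cannot be told apart. None of the windows tested passed without trained replicate 1, trained replicate 2 or untrained replicate 2.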

How the results depend on the processing

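Of 75 recomputed summary values, 40 stayed the same, 5 reversed, 10 moved, 13 were stronger and 7 weaker. Of 141 for gene lists and single genes, windows and domains, 138 stayed the same, 2 moved and 1 reversed. To count as the same, differences had to keep their direction, and those of promoter shares also had to stay within the SD. Counts and the Mb covered in 1 group only had to stay within a fixed factor of the main value. The difference in the number of domains (443.5) ran from -6873 to 7760 when 1 replicate was left out, reversing to -1850 without trained replicate 1 and to -6873 without untrained replicate 1. The difference in covered genome (-11.7 Mb) reversed to 84.3 Mb with domains of log2 of at least 1, and ran from -51.9 to 28.5 Mb with a replicate left out, reversing to 13.5 Mb without trained replicate 1 and to 28.5 Mb without untrained replicate 1. Windows of 1 Mb gave 40 calls (2 higher, 38 lower) and consensus domains covered in any part gave 9. With a replicate left out, windows and consensus domains gave 0 calls, and genes 0 to 4471 (4471 without untrained replicate 1, 1582 without untrained replicate 2), where the lone mouse of a group is assumed to vary like the others. The interaction with 30 min gave 37 calls after centring and 0 to 904 with a replicate left out, and that with 6 h 0 to 1682, with 1682 without untrained replicate 1 and 3 without untrained replicate 2. Genes changed in RNA numbered 464 with DESeq2, 51 without a filter, and 1 to 416 with a replicate left out (416 without untrained replicate 2). Sequence in both trained and neither untrained list ran from 47.4 to 114 Mb and the reverse from 57.6 to 106 Mb, since fewer lists then have to agree. Immediate early genes whose groups do not overlap ran from 9 to 20, with 20 without trained replicate 1 or untrained replicate 1. The difference at Fosb ran from -2.93 to 30.3 percentage points, reversing without trained replicate 2. Otherwise the cause was not tested.

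Replicate numbers are shared between groups of different mice, and deviations of same-numbered libraries correlated at -0.0791. With 2 mice in a group, swapping the numbers changes only the sign of this value. It therefore cannot show whether same-numbered libraries were handled together, and the numbers are not known to pair the mice. The fit with a replicate block gave 90 windows (2 higher, 88 lower), 30 consensus domains (all higher), 0 genes and 0 genes changed in RNA. With 2 mice in a group, a lack of calls does not show that groups are alike.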
